A study of Rattus norvegicus with 18 samples.

Results

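The vascular endothelial growth factor (VEGF) family was followed in rat ovarian follicles around ovulation, through the ligands Vegfa, Vegfb, Vegfc and Pgf, the receptors Flt1, Kdr and Flt4, and the co-receptors Nrp1 and Nrp2. These 9 genes were taken from 16 of the 31099 probe sets on the array, namely every probe set whose only gene symbol in the platform annotation was one of the 9, out of 14217 genes with such a probe set. Each of 18 Affymetrix arrays measured total RNA of follicles cut by laser from frozen ovary sections of Crl:CD(SD) rats. The 6 groups held 3 arrays each. RU UF were unruptured follicles collected at 10:00 on the day of estrus after 1 oral dose of 100 mg/kg RU486, a blocker of the progesterone and glucocorticoid receptors, given at 10:00 on the day of proestrus. RU PeF were peri-ovulatory follicles collected at 22:00 on the day of proestrus after the same dose. IM UF and IM PeF were the matching follicles after 1 oral dose of 4 mg/kg indomethacin, a cyclooxygenase inhibitor, given at 16:00 on the day of proestrus. Control PoF were post-ovulatory follicles at 10:00 on the day of estrus, and control PeF peri-ovulatory follicles at 22:00 on the day of proestrus, both from rats given no drug. The labels name no vehicle-dosed group, the drugs differed in dose and hour, and at estrus a drug-treated follicle was also an unruptured one while the control had ruptured, so the drug and the absence of rupture cannot be told apart there. The labels state 3 animals per group and time without tying arrays to animals, so p-values measure the spread between arrays.

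VEGF ligands are secreted proteins that make endothelial cells divide, migrate and loosen their junctions. Vegfa, the main ligand, acts mostly through Kdr, while Flt1 binds Vegfa, Vegfb and placental growth factor (Pgf) and can hold ligand away from Kdr. Vegfc acts mostly through Flt4 and supports lymphatic vessels, and the neuropilins Nrp1 and Nrp2 bind both VEGFs and class 3 semaphorins. In the ovary, granulosa and luteal cells are known sources of Vegfa, and the follicle gains blood vessels inside its basement membrane only after ovulation.

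The sequences just upstream of Vegfa and Vegfc are shown because these were the ligands with the largest differences between the times, in opposite directions. Both are the 250 bases before the first annotated start, read 5′ to 3′ on the strand of the gene, from RefSeq on the build GRCr8. Capitals mark matches, on either strand, to any of 4 motifs: ACGTG and GCGTG, the cores of the hypoxia response element, AGAACA, part of the response element of the progesterone and glucocorticoid receptors, and GGGCGG, the Sp1 box. The Vegfa window lies at chr9:22452604-22452853 on the plus strand and the Vegfc window at chr16:44560888-44561137 on the minus strand.
Vegfa: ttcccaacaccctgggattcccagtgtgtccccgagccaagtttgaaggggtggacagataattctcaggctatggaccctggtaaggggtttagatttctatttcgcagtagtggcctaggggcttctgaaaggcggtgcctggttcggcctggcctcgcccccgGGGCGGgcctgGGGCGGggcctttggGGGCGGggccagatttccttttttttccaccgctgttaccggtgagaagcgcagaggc
Vegfc: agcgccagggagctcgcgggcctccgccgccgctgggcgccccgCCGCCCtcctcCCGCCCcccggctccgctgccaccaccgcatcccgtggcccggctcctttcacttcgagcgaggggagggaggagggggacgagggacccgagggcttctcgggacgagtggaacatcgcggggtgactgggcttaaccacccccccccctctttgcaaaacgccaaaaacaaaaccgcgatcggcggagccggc

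The capitals in both windows were Sp1 boxes, 3 in Vegfa and 2, on the opposite strand, in Vegfc. Neither window held the letters of the other 3 motifs. A GGGCGG match stood in the windows of 7 of the 9 members (all but Nrp1 and Nrp2). Among all 33469 upstream windows of this length taken from RefSeq, 30.5% held such a match. GCGTG stood in 6 members (Vegfb, Pgf, Flt1, Kdr, Nrp1 and Nrp2) and in 25.9% of all windows. ACGTG and AGAACA stood in none of the 9 and in 16.6% and 17.5% of all windows. The match describes letters only.

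The deposited values were probe set intensities on a linear scale with a floor of 1, and their array medians ranged from 4.40 (control PeF replicate 3) to 27.4 (control PoF replicate 3). Signals were therefore quantile-normalized between arrays, and levels below are these normalized signals, in arbitrary units that compare groups for 1 probe set but not 1 gene with another. Differences are on the scale of log2(signal + 2.79), tested with limma over all 18 arrays and adjusted by Benjamini-Hochberg over 18155 probe sets, with 0.05 as the threshold. The brightest probe set stood for each gene. Of the 16 probe sets 9 were bright enough to be tested, which gave 7 of the 9 members a test and left out Pgf and Flt4. The median gene moved by 0.08 between control PoF and control PeF as normalized, by 0.33 with arrays scaled to 1 median and by 1.38 with the signals as deposited, so changes are relative to the other genes on the arrays. In these mixed follicle samples, fewer cells of a type and less RNA per cell cannot be told apart.

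Between the evening of proestrus and the morning of estrus the family split. Vegfa and Vegfb were higher and Vegfc and Kdr lower in control PoF than in control PeF, and Flt1, Nrp1 and Nrp2 did not pass. These 4 of 7 tested members stood against 44.1% of all 10381 tested genes called in that comparison, 24.4% higher and 19.7% lower, so the share is near that of the genes at large. Vegfc and Kdr fell under both drugs as well, and Vegfa rose under both, past the threshold by its brighter probe set only. Vegfa was lower in RU UF than in control PoF, and Nrp1 was lower in the RU486 groups at both times by its brighter probe set only. With arrays scaled to 1 median these calls were lost, except that on the dimmer Vegfa probe set. No member passed for indomethacin against control at either time. Of all tested genes 0% were called in IM PeF against control PeF and 0.0482% in IM UF against control PoF, so hardly any gene passed there.

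Vegfa, the ligand that drives vessel growth, had 2 probe sets, of which the brighter stood for the gene. The brighter one gave a normalized signal of 1905, 1559 and 1092 in control PoF, against 322, 465 and 392 in control PeF. All 3 post-ovulatory arrays lay above all 3 peri-ovulatory ones. The log2 difference was 1.92 ± 0.19 (SE), or 3.79-fold (adjusted p = 9.71e-07, limma). The dimmer Vegfa probe set gave 224, 142 and 132 in control PoF, against 29.2, 42.7 and 62.5 in control PeF, again without overlap. Its difference was 1.85 ± 0.34 (adjusted p = 3.60e-04, limma), so the probe sets gave like values here.

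Under the drugs the rise of Vegfa was present in its brighter probe set. RU UF arrays read 875, 777 and 795, against 391, 370 and 286 in RU PeF, a difference of 1.23 ± 0.19 (adjusted p = 8.09e-05, limma). IM UF arrays read 930, 879 and 971, against 545, 348 and 419 in IM PeF, a difference of 1.10 ± 0.19 (adjusted p = 2.94e-04, limma). Neither pair of groups overlapped. The dimmer probe set did not show this rise past the threshold, at 0.45 ± 0.34 under RU486 (adjusted p = 0.312) and 0.50 ± 0.34 under indomethacin (adjusted p = 0.281), both from limma.

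At estrus, the Vegfa arrays of both drug groups lay below every control PoF array. The difference of RU UF to control PoF was -0.86 ± 0.19 (1.81-fold lower, adjusted p = 0.00960, limma), and -1.73 ± 0.34 (3.32-fold lower, adjusted p = 0.00329) by the dimmer probe set. Without control PoF replicate 1, the brightest of its group, the first of these no longer passed (adjusted p = 0.0660), while the dimmer probe set passed whichever array was left out (adjusted p at most 0.0275). For IM UF the differences were -0.67 ± 0.19 (adjusted p = 0.340, limma) and -1.64 ± 0.34 (adjusted p = 0.104), neither past the threshold. IM UF and RU UF did not differ past it in Vegfa either: RU UF minus IM UF had a 95% interval from -0.59 to 0.23 on the log2 scale. At 22:00 Vegfa gave 95% intervals from -0.58 to 0.24 for RU PeF and from -0.27 to 0.55 for IM PeF, each minus control PeF. Tested directly, the rise under each drug minus the rise in controls was -0.69 ± 0.28 for RU486 (adjusted p = 0.180) and -0.82 ± 0.28 for indomethacin (adjusted p = 0.456), neither past the threshold in limma.

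**Figure D1:**
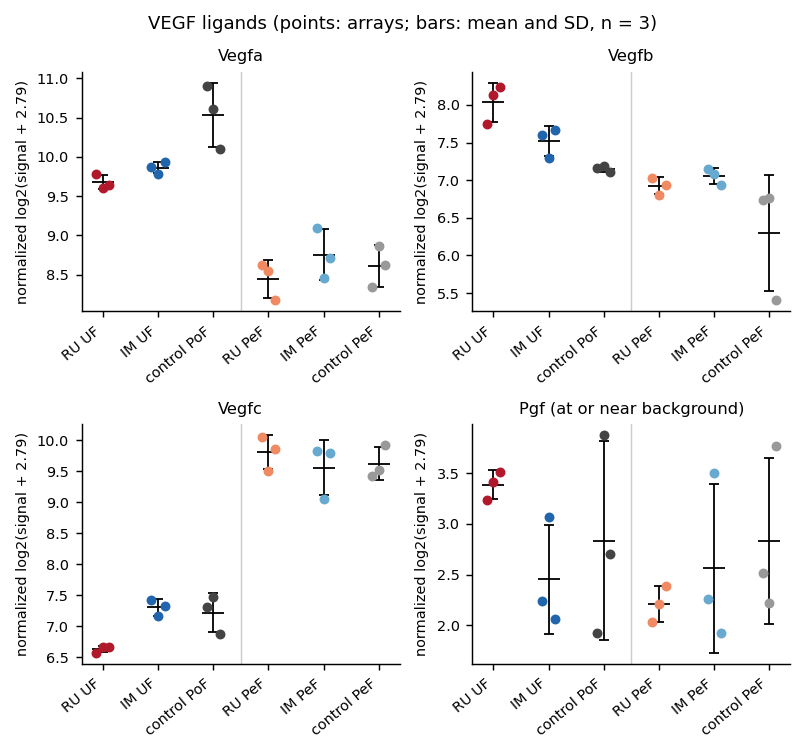
Normalized log2 signal of the 4 VEGF ligands by group, with points for the 3 arrays of a group and bars for the mean and SD. The 3 estrus groups stand left of the grey line and the 3 proestrus groups right of it, each drug group left of its control. Vegfa lies higher and Vegfc lower in every estrus group than in its proestrus group, and Pgf stays near the array background.

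Vegfb, a ligand of Flt1 with a weak effect on vessel growth, read 140, 143 and 136 in control PoF, against 104, 105 and 39.5 in control PeF. The value of 39.5 came from control PeF replicate 3, the dimmest array, and stood far below the rest of its group. The difference of 0.86 ± 0.26 passed (adjusted p = 0.0156, limma), but was 0.41 without that array and did not pass (adjusted p = 0.0709). In RU UF Vegfb read 211, 277 and 298, the highest level of any group, against 128, 109 and 119 in RU PeF. This rise of 1.11 ± 0.26 (2.16-fold, adjusted p = 0.00284, limma) passed with any array left out. Against control PoF, RU UF was higher by 0.88 ± 0.26 (adjusted p = 0.0459, limma), a call that was lost without any 1 of the 6 arrays (adjusted p from 0.0517 to 0.166). IM UF read 192, 155 and 201, against 139, 132 and 120 in IM PeF, without overlap but with a difference of 0.47 ± 0.26 that did not pass (adjusted p = 0.186).

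Vegfc, the lymphatic growth factor, had the widest differences of the family. Its probe set read 157, 174 and 114 in control PoF, against 685, 731 and 972 in control PeF. The groups lay far apart, and the log2 difference was -2.41 ± 0.21 (5.31-fold lower, adjusted p = 1.88e-07, limma). IM UF read 170, 141 and 157, against 906, 527 and 891 in IM PeF, a difference of -2.25 ± 0.21 (4.77-fold lower, adjusted p = 4.12e-07). RU UF read 92.1, 98.1 and 99.1, against 1058, 726 and 930 in RU PeF, a difference of -3.18 ± 0.21 (9.04-fold lower, adjusted p = 8.29e-09).

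The 3 RU UF arrays were the lowest of all 18 for Vegfc, below every control PoF and every IM UF array. Even so, RU UF minus control PoF was -0.58 ± 0.21 (adjusted p = 0.101) and RU UF minus IM UF -0.67 ± 0.21 (adjusted p = 0.0642), neither past the threshold in limma. The fall under RU486 minus the fall in controls was -0.77 ± 0.30 (adjusted p = 0.166). At 22:00 the 3 groups overlapped, with 95% intervals of the log2 difference to control PeF from -0.26 to 0.63 for RU PeF and from -0.51 to 0.38 for IM PeF.

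Pgf, a ligand of Flt1, was near the array background throughout. Its 2 probe sets exceeded the brightest unspiked bacterial control probe set on 3 and 2 of 18 arrays, and no array read above 11.9. At these signals no difference between groups could be read.

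Among the receptors, Kdr, the main signalling receptor for Vegfa, followed the direction of Vegfc rather than that of Vegfa. Its bright probe set read 277, 240 and 248 in control PoF, against 445, 506 and 430 in control PeF. All 3 estrus arrays lay below all 3 proestrus arrays. The difference was -0.84 ± 0.18 (1.79-fold lower, adjusted p = 0.00122, limma) and, with the signals as deposited, 0.64, where the median gene stood at 1.38. IM UF read 211, 180 and 240, against 470, 313 and 407 in IM PeF, a difference of -0.90 ± 0.18 (adjusted p = 8.45e-04). RU UF read 239, 188 and 291, against 320, 423 and 355 in RU PeF, a difference of -0.62 ± 0.18 (adjusted p = 0.0102). The RU486 call was lost without RU PeF replicate 2 or RU UF replicate 2 (adjusted p at most 0.0688). A second Kdr probe set was above background on 7 of 18 arrays and was not tested.

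Flt1, the receptor that also traps ligand, differed little between the times in controls, with 107, 58.7 and 52.2 in control PoF, against 71.0, 76.3 and 76.9 in control PeF. Control PoF replicate 1 stood apart from the rest of its group, and the difference was -0.11 ± 0.29 (adjusted p = 0.795, limma). RU UF held the lowest group mean, at 40.03, 38.8 and 37.0. These arrays lay below all control PoF arrays and below the IM UF arrays (76.8, 76.4 and 70.3). The differences of -0.80 ± 0.29 to control PoF (adjusted p = 0.105) and -0.90 ± 0.29 to IM UF (adjusted p = 0.0727) did not pass in limma. At 22:00 RU PeF (67.5, 51.4 and 27.4) and IM PeF (50.4, 37.6 and 55.0) lay below control PeF, with differences of -0.67 ± 0.29 (adjusted p = 0.168) and -0.64 ± 0.29 (adjusted p = 0.429) that did not pass. The 2 other Flt1 probe sets were above background on 14 and 11 arrays and were not tested.

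Flt4, the receptor for Vegfc on lymphatic endothelium, was above background on 6 of 18 arrays and had no test. Only control PeF replicate 3 read above 10.5, at 28.2, while the other 2 arrays of that group read at or near the floor of 1. As deposited, the signal on that dimmest array was 5.63, against a background of 5.10, and IM UF replicate 1 was higher, at 13.48. The 28.2 is therefore not read as a higher level of Flt4.

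**Figure D2:**
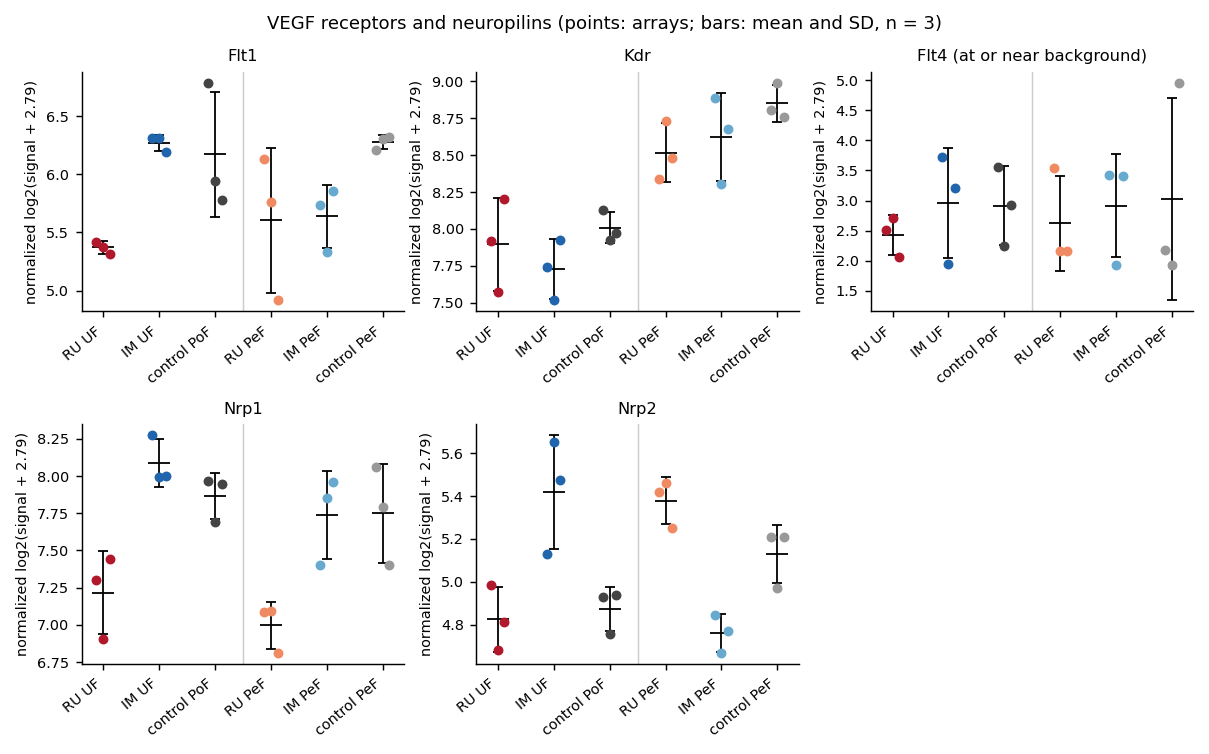
Normalized log2 signal of the 3 VEGF receptors and 2 neuropilins by group, with points for the 3 arrays and bars for the mean and SD. Kdr lies lower in each estrus group than in its proestrus group as normalized (reversed in controls with the signals as deposited), Nrp1 lies lowest in the RU486 groups, and Flt4 is near background.

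Nrp1, the co-receptor shared by Vegfa and semaphorin 3A, separated the drugs rather than the times. By its brighter probe set, RU PeF read 133, 133 and 110, against 264, 219 and 166 in control PeF. Every RU PeF array lay below every control array, and the difference was -0.75 ± 0.20 (1.69-fold lower, adjusted p = 0.0265, limma). With the signals as deposited it was 0.13, where the median gene stood at 0.83. RU UF read 155, 117 and 171, against 247, 203 and 244 in control PoF, a difference of -0.65 ± 0.20 (adjusted p = 0.0474). Against indomethacin, RU PeF minus IM PeF was -0.74 ± 0.20 (adjusted p = 0.0326) and RU UF minus IM UF -0.87 ± 0.20 (adjusted p = 0.0114), with IM PeF at 167, 228 and 247 and IM UF at 307, 252 and 253. None of these pairs of groups overlapped. IM PeF minus control PeF was -0.01 ± 0.20 and IM UF minus control PoF 0.22 ± 0.20, neither past the threshold.

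These Nrp1 calls were close to the threshold. The call of RU PeF against control PeF was lost without any 1 of 5 of its 6 arrays (all but control PeF replicate 3; adjusted p up to 0.112), and that of RU UF against control PoF without any of its 6 (adjusted p from 0.0534 to 0.220). RU PeF against IM PeF was lost without any 1 of 5 arrays (all but IM PeF replicate 1; adjusted p up to 0.143), and RU UF against IM UF without IM UF replicate 1 or RU UF replicate 2 (adjusted p up to 0.0718). The dimmer Nrp1 probe set did not show the lower level: it read 55.2, 50.7 and 69.2 in RU PeF, against 64.3, 49.995 and 16.0 in control PeF, a difference of 0.58 ± 0.34 (adjusted p = 0.307). The 16.0 came again from control PeF replicate 3, the dimmest array. For RU UF against control PoF this probe set gave -0.12 ± 0.34 (adjusted p = 0.897).

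**Figure D3:**
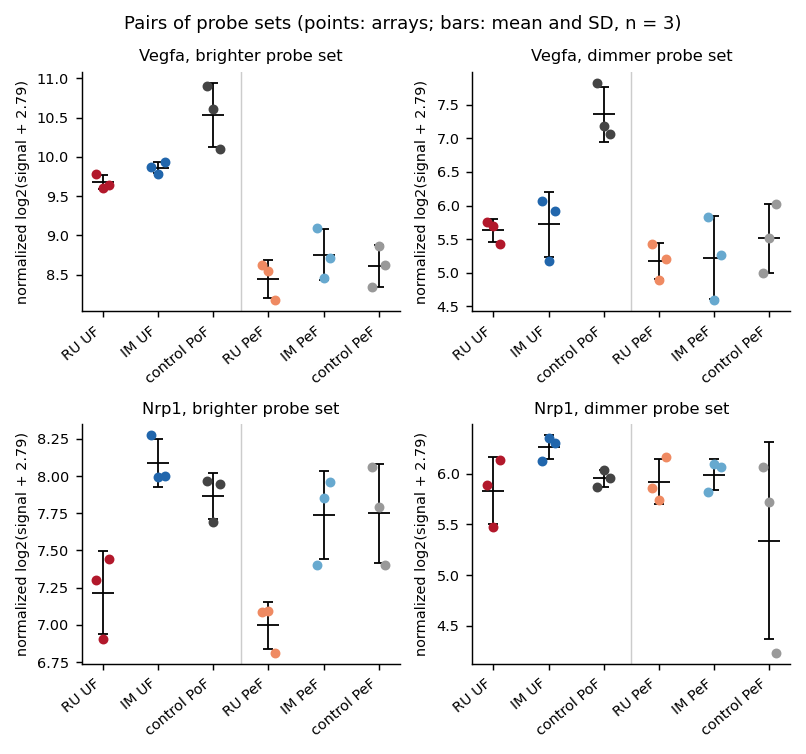
Normalized log2 signal of the brighter and the dimmer tested probe set of Vegfa (top) and Nrp1 (bottom) by group, with points for the 3 arrays and bars for the mean and SD. For Vegfa both probe sets are highest in control PoF, and for Nrp1 the lower level of the RU486 groups appears in the brighter probe set and not in the dimmer one.

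Nrp2, the co-receptor for Vegfc, was dim, with normalized signals from 22.6 to 47.4. It read 32.2, 47.4 and 41.7 in IM UF, against 25.9, 22.6 and 24.5 in IM PeF, a rise of 0.66 ± 0.23 (adjusted p = 0.0330, limma). That call was lost without any 1 of 5 of the 6 arrays (all but IM UF replicate 1; adjusted p up to 0.116). Under RU486 the order was opposite, at 28.8, 22.8 and 25.3 in RU UF, against 39.996, 41.2 and 35.3 in RU PeF, where the groups did not overlap but the difference of -0.55 ± 0.23 did not pass (adjusted p = 0.0627). The RU486 time difference minus the indomethacin one, a comparison added after the values were seen, was -1.21 ± 0.32 for Nrp2 and did not pass (adjusted p = 0.0531), against 3.1% of all genes called in it (1.88% higher, 1.22% lower). The same comparison gave -0.92 ± 0.30 for Vegfc (adjusted p = 0.120) and -0.86 ± 0.41 for Flt1 (adjusted p = 0.345). In controls Nrp2 differed by -0.26 ± 0.23 between the times (adjusted p = 0.391). Its second probe set was above background on 1 array.

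The time differences can be read side by side for the 7 tested members. In IM UF against IM PeF 4 of 7 passed, 2 higher (Vegfa, Nrp2) and 2 lower (Vegfc, Kdr), where 37.8% of all tested genes were called (19.4% higher, 18.4% lower). In RU UF against RU PeF 4 of 7 passed, 2 higher (Vegfa, Vegfb) and 2 lower (Vegfc, Kdr), against 42.7% of all genes (21.3% higher, 21.4% lower). The median member difference was -0.11 in controls, 0.47 under indomethacin and -0.23 under RU486, beside 0.08, -0.0029 and -0.01 for all tested genes. Flt1 (0.63 ± 0.29 under indomethacin and -0.23 ± 0.29 under RU486) and Nrp1 (0.35 ± 0.20 and 0.22 ± 0.20) did not pass under either drug.

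**Figure D4:**
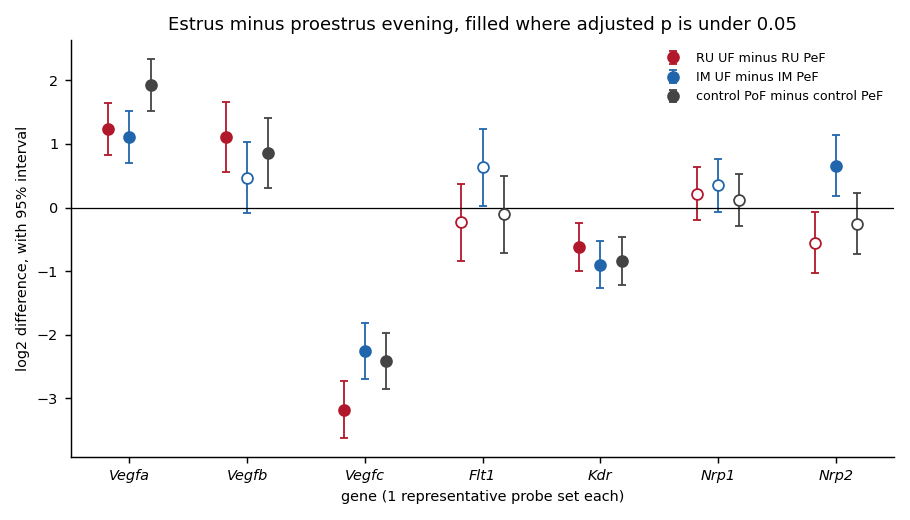
Log2 difference between estrus and proestrus evening for the 7 tested members under RU486, under indomethacin and in controls, with 95% intervals and filled points where the limma adjusted p is under 0.05. Vegfa is above 0 and Vegfc and Kdr below 0 in all 3 series, except that Kdr in controls turns positive with the signals as deposited.

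Against the controls of the same time, RU486 had 1 of 7 members called at 22:00 (Nrp1, lower), where 8.53% of all genes were called, 3.78% higher and 4.75% lower. At estrus it had 3 of 7 (Vegfa and Nrp1 lower, Vegfb higher), against 9.99% of all genes (4.53% higher, 5.46% lower), but leaving out any 1 of the 6 arrays left 0 or 1 call. With arrays scaled to 1 median, or with the signals as deposited, 0 members passed for RU486 at either time. Indomethacin had 0 of 7 at 22:00, where 0% of all genes passed, and 0 of 7 at estrus, against 0.0482%. At an unadjusted p under 0.05 in limma, 2 members passed at each of these times, Vegfb and Flt1 at 22:00 and Vegfa and Nrp2 at estrus. Of all 18155 tested probe sets, 2074 passed that threshold for indomethacin at 22:00 and 1265 at estrus. The largest indomethacin difference at 22:00 was that of Vegfb, at 0.76 ± 0.26 (adjusted p = 0.365), which was 0.31 without control PeF replicate 3. For RU486 Vegfb at 22:00 differed by 0.63 ± 0.26 (adjusted p = 0.157), or 0.18 without that array. The indomethacin difference of Nrp2 at estrus was 0.54 ± 0.23 (adjusted p = 0.637).

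RU486 against indomethacin gave 1 of 7 at each time, Nrp1, lower in the RU486 group. Of all genes 6.03% were called at 22:00 (2.18% higher, 3.85% lower) and 7.87% at estrus (3.49% higher, 4.38% lower). No member passed for the change of a drug effect between the times, with 0 of 7 for indomethacin (0% of all genes) and 0 of 7 for RU486 (4.44%, 2.27% higher and 2.17% lower). At an unadjusted p under 0.05 in limma, 2 members passed in each, Vegfa and Nrp2 for indomethacin and Vegfa and Vegfc for RU486. Of all 18155 tested probe sets, 1641 passed that threshold for indomethacin there and 3447 for RU486. Nrp2 had a difference of 0.91 ± 0.32 there for indomethacin (adjusted p = 0.468).

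**Figure D5:**
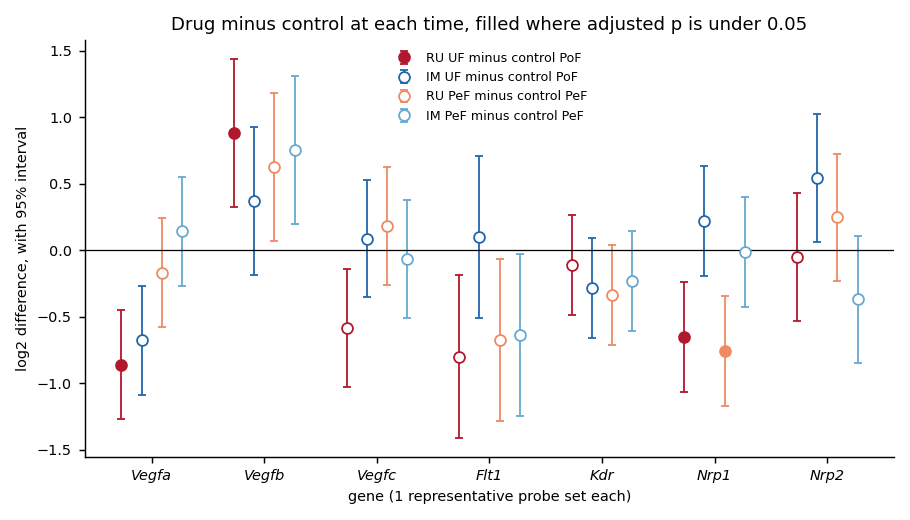
Log2 difference between each drug group and the control group of its time for the 7 tested members, with 95% intervals and filled points where the limma adjusted p is under 0.05. The filled points are Vegfa, Vegfb and Nrp1 in RU UF and Nrp1 in RU PeF, the last of which turns to 0.13 with the signals as deposited.

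Ranked by mean level, Vegfa ran from control PoF through IM UF and RU UF, each group above the next without overlap, to the 3 proestrus groups, which overlapped. Vegfc had the 3 proestrus groups on top and overlapping, then IM UF and control PoF, which overlapped, and RU UF below them. Kdr formed an upper set of 3 proestrus groups and a lower set of 3 estrus groups, with neighbours overlapping within each set. Across the 18 arrays, Vegfc and Kdr levels had a Pearson r of 0.846 and Vegfa and Vegfc one of -0.823, a description in which the points share group and array.

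Of 40 listed genes of VEGF signal transduction 31 were tested (34 were on the array), and in control PoF against control PeF 10 rose and 7 fell, with a list median of 0.26 beside 0.08 for all genes. With 44.1% of all genes called there (24.4% higher, 19.7% lower), these counts are near those of the genes at large. Those with the smallest p were the stress kinase Mapkapk3 (3.84 ± 0.49), the phospholipase Pla2g4a, which frees arachidonic acid (-3.17 ± 0.46), and the kinase subunit Pik3ca (-0.88 ± 0.13, but 0.60 with the signals as deposited). In RU UF against control PoF 3 rose and 1 fell, near the 9.99% of all genes called (4.53% higher, 5.46% lower). The fall was that of the small heat shock protein Hspb1 (-1.90 ± 0.27). In RU PeF against control PeF 2 rose and 1 fell, near the 8.53% of all genes called (3.78% higher, 4.75% lower). The risers were Cdc42 (0.66 ± 0.13) and Map2k2 (0.76 ± 0.16). Hspb1 fell (-1.01 ± 0.27), a call lost without control PeF replicate 1, RU PeF replicate 2 or RU PeF replicate 3. For indomethacin against control none of the 31 passed at either time. Of all genes 0% were called in IM PeF against control PeF and 0.0482% in IM UF against control PoF. The absence of calls therefore does not set this list apart from the genes at large.

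Genes that endothelial cells are known to raise on VEGF were called in both directions between the times in controls and mostly lower under RU486. Of 17 tested, 3 rose and 3 fell in control PoF against control PeF, below the 44.1% of all genes called there, led by the vessel-tip gene Esm1 (-4.32 ± 0.26), tissue factor F3 (-3.12 ± 0.31) and the peptide apelin, Apln (4.96 ± 0.53). In RU PeF against control PeF 1 rose and 3 fell, beside 3.78% of all genes higher and 4.75% lower. The fallers were the chemokine receptor Cxcr4 (-4.85 ± 0.35), F3 (-3.76 ± 0.31) and the protease Adamts1 (-2.35 ± 0.27). The list median was -0.36 beside 0.06 for all genes. In RU UF against control PoF 5 fell and 0 rose, where 5.46% of all genes were lower, among them the vessel-destabilizing ligand Angpt2 (-1.49 ± 0.26), Cxcr4 (-2.01 ± 0.35) and F3 (-1.78 ± 0.31), with a list median of -0.24 beside -0.04. Several of these genes, Adamts1 among them, are also known in granulosa cells.

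The listed regulators of Vegfa expression, direct or through hypoxia-inducible factors, had 8 tested. Of these 2 rose and 2 fell in control PoF against control PeF, near the 44.1% of all genes called, with a list median of 0.09 beside 0.08 for all genes. The oxygen-sensing hydroxylases Egln1 (0.89 ± 0.22) and Egln3 rose, the second from a level not above background in control PeF, so that no fold is given for it. Vhl, which marks hypoxia-inducible factors for breakdown, fell (-1.26 ± 0.21, or 0.21 with the signals as deposited). Epas1, a hypoxia-inducible factor, was lower under RU486 at both times, with differences of -2.06 ± 0.32 in RU PeF against control PeF and -2.20 ± 0.32 in RU UF against control PoF. Egln3 was lower at estrus under both drugs, with a difference of -2.99 ± 0.51 in IM UF against control PoF (adjusted p = 0.0480, limma), and in RU UF it was not above background (adjusted p = 1.03e-04). The indomethacin call on Egln3 was lost without control PoF replicate 1 or 2 or IM UF replicate 2 or 3 (adjusted p up to 0.435).

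Of the proteins that bind or limit VEGF, 7 were tested, and in control PoF against control PeF 3 rose and 2 fell, beside 24.4% of all genes higher and 19.7% lower, with a list median of -0.38 beside 0.08 for all genes. The risers were the matrix proteins Ccn2 (1.58 ± 0.28), Sparc (1.21 ± 0.24) and perlecan, Hspg2 (0.89 ± 0.24). Adamts1, which can sequester VEGF, was the only one of the 7 called in RU PeF against control PeF, where 8.53% of all genes were called. In RU UF against control PoF it was lower (-1.53 ± 0.27) along with Ccn2 (-2.16 ± 0.28), where 5.46% of all genes were lower. Among 9 tested semaphorins and plexins, which use the neuropilins, 2 rose and 3 fell in control PoF against control PeF, beside the same shares of all genes, with a list median of -0.11. Sema3c fell by 2.02 ± 0.13 on the log2 scale there. In RU UF against control PoF 3 rose and none fell, beside 4.53% of all genes higher and 5.46% lower. They were Sema3d (3.35 ± 0.50), Sema3b (1.43 ± 0.29) and Plxna1 (0.94 ± 0.24), the last lost without any 1 of 4 arrays. In RU PeF against control PeF, where 4.75% of all genes were lower, Sema3c alone was lower (-0.58 ± 0.13, or 0.32 with the signals as deposited).

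Markers of the cells that carry these receptors are given beside the VEGF results. Of 20 endothelial markers 17 were on the array with 1 symbol, and their summed signal was 1529 to 1643 in control PoF and 1345 to 1482 in control PeF. It was 932 to 1147 in RU PeF and 1156 to 1446 in RU UF, and 1166 to 1264 in IM PeF and 1300.0 to 1396 in IM UF, each below the controls of the same time without overlap. In RU PeF against control PeF 2 of 16 tested endothelial markers fell, Tek (-0.84 ± 0.21) and Emcn (-0.66 ± 0.17), beside 4.75% of all genes lower. In RU UF against control PoF 1 of 16 fell, Eng (-0.76 ± 0.19), near the 5.46% of all genes lower. No endothelial marker was at background on all 3 arrays of a group except Cldn5 in IM PeF. The 11 markers of smooth muscle and pericytes summed to 292 to 320 in RU PeF against 542 to 590 in control PeF, and to 480 to 581 in RU UF against 796 to 974 in control PoF. Under indomethacin the sums were 441 to 533 in IM PeF, below control PeF, and 1064 to 1192 in IM UF, above control PoF. Of the 11, 3 were called lower in RU PeF and 1 in RU UF, each against its control, and 0 higher. Of all genes 4.75% and 5.46% were lower there. Of these 11, Cspg4 was at background in control PeF.

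Of 5 lymphatic markers 2 were lower in control PoF than in control PeF, where 19.7% of all genes were lower. They were Reln (-2.47 ± 0.28) and Pdpn (-2.18 ± 0.27), while Lyve1, Prox1 and Ccl21 did not pass. The summed signal of the 5 was 218 to 236 in control PoF and 583 to 828 in control PeF, and no lymphatic marker was at background in either group. In RU PeF the sum was 542 to 853, which overlapped control PeF, with Ccl21 at background. Lyve1 was lower there than in control PeF (-3.21 ± 0.48) and the other 4 were not called, beside 4.75% of all genes lower. In RU UF Lyve1 was not above background. Summed granulosa markers, 13 measured and none at background, were 30756 to 32575 in control PoF and 26744 to 36952 in control PeF, which overlapped. In RU UF they summed to 36173 to 37816, above control PoF without overlap. Of the 13, 4 were called higher and 0 lower there, beside 4.53% of all genes higher and 5.46% lower. Theca markers, 7 on the array, summed to 15345 to 15551 in RU UF, against 9715 to 11345 in control PoF. Of 5 tested 3 were called higher and 0 lower, beside the same shares of all genes, with a median difference of 2.34. Lhcgr stood on both the granulosa and the theca list, so these lists are not separate. Agtr2 was at background in RU UF and Gli1 in control PoF. Gapdh signal at the 3′ end exceeded that at the 5′ end by a log2 ratio of 2.22 ± 0.13 in control PoF and 3.72 ± 0.66 in control PeF (SD, n = 3), a measure that grows as RNA gets shorter. It was 3.07 ± 0.20 in RU UF and 2.78 ± 0.15 in RU PeF, and 2.89 ± 0.87 in IM UF and 2.99 ± 0.56 in IM PeF. By Gapdh, then, the drug groups did not show the lower estrus value of the controls. RU UF and IM UF averaged above control PoF, IM UF with arrays at 2.19, 3.86 and 2.62. The same ratio for Actb did not separate the control groups. It was 5.18, 5.06 and 4.92 in control PoF, against 5.93, 5.46 and 4.23 in control PeF. RU UF (5.64, 5.23 and 4.79) and IM UF (4.98, 5.18 and 5.33) overlapped control PoF by Actb. The part of these markers and of RNA length in the VEGF results was not tested.

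Genes with the most similar pattern over the 18 arrays, among 10374 compared by Pearson r of normalized log2 signals, were Tnks2 (0.937), Slc40a1 (0.936) and Nedd9 (0.936) for Vegfa. For Vegfc they were Ubqln1 (0.988), Gfpt2 (0.987) and St13 (0.985), and for Kdr Hspa9 (0.943), Bud13 (0.927) and Bmp7 (0.924). Vegfb was nearest to Hmg20b (0.948), Apc2 (0.941) and C7h8orf82 (0.939). For Nrp1 they were Rab31 (0.894), Cryab (0.890) and Sh3bp5 (0.877). Flt1 was nearest to Dimt1 (0.851), Rps24 (0.790) and Cav1 (0.782), and Nrp2 to Rnft1 (0.747), Pnpt1 (0.736) and Nol12 (0.735). These likenesses are descriptions over arrays that share groups and carry no test.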

How the data were processed

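Follicle RNA (15 follicles per phase from 8 µm sections) was biotin-labelled and hybridized, per the labels' protocols. The authors deposited linear intensity values whose lowest value is 1. The submitters' processing notes name MAS5 without a version or role. Groups and replicate numbers came from the sample titles.

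Here 57 control probe sets were left out, signals were quantile-normalized, and log2(signal + 2.79) was taken, the addend being the 20th percentile of all values. Probe sets had to exceed their own array's median on 3 or more of the 18 arrays. limma 3.58.1 in R 4.3.3 (lmFit, then eBayes with a trend) fitted 6 group means with 12 residual degrees of freedom. Benjamini-Hochberg adjustment was made within each comparison. In the platform annotation 20826 probe sets had 1 symbol, 436 several and 9780 none, and 20758 matched a RefSeq gene ID. The brightest of 27 unspiked bacterial control probe sets set each array's background. For 3 against 3 arrays an exact two-sided permutation p cannot go below 0.1, so limma's fit across all probe sets was used. Precision is limited by the number of arrays. The fit was tested on simulated data.

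The members, gene lists and tests were chosen with earlier results of these data known. Every member probe set was described, and from each pathway list up to 3 called genes with the smallest adjusted p per comparison. Cell type markers named with values were chosen after their values were seen. Alternatives changed the scaling, pseudocount, filter, groups in the fit, array weights and replicate block, or left arrays out. Promoter windows came from RefSeq (GRCr8), which held all 9 members.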

Additional observations from a re-analysis of the deposited data

How the results depend on the processing

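Replicate numbers did not pair the arrays: deviations from the group means correlated between -0.304 and 0.118 over 45 same-numbered pairs, 1 of them over 0.1, and 0 of 18 arrays correlated best with their own number. With the replicate block, RU UF against control PoF had 1 member called and every other comparison kept its count. Of 54 member results, 34 kept direction and call with the signals as deposited and 44 with median scaling, 51 without the filter, 52 with pseudocount 16 and 53 with pseudocount 1. With the signals as deposited the member counts were 2 for control PoF against control PeF, 1 for RU UF against RU PeF and 0 for RU PeF and RU UF against control or indomethacin and for IM UF against IM PeF. Median scaling gave 0 for the same 4 RU486 comparisons, and no filter gave 1 for RU UF against control PoF. With only the compared groups in the fit, RU PeF had 0 calls against control PeF and 0 against IM PeF, and RU UF 3 against IM UF. Array weights gave 2 for RU PeF against control PeF, 5 for RU UF against control PoF, 2 for RU PeF against IM PeF, 4 for RU UF against IM UF and 2 for the change of the RU486 effect. Without the 3 dimmest arrays these last 3 were 0, 2 and 2. The array weights were 0.47, 3.97 and 0.11 within control PeF and 0.66, 0.29 and 7.17 within IM PeF. Replicate 2 of control PeF and replicate 3 of IM PeF thus weighed most. The share of all genes called with array weights was not counted, so these counts have no background. Leaving out 1 array gave 3 to 4 calls for each time comparison (main count 4), 0 to 1 for RU PeF against control PeF, RU UF against control PoF, RU PeF against IM PeF and RU UF against IM UF, and 0 for the others. Differences that changed sign with the signals as deposited were, for control PoF against control PeF, Flt1 at 1.26, Kdr at 0.64, Nrp2 at 0.88, Vhl at 0.21, Sema3b at 0.088, Plxna2 at 0.039 and Pik3ca at 0.60. For RU PeF against control PeF they were Flt1 at 0.10, Nrp1 at 0.13 and Sema3c at 0.32, for RU UF against control PoF Mapkapk2 at -0.0569 and Pik3ca at -0.31, and for Nrp2 IM UF against control PoF at -0.19 and the change of the indomethacin effect at -0.30. The median gene moved by 1.38, 0.83, -0.72 and -0.76 in these 4 direct comparisons. Flt1 in controls was 0.22 with median scaling, and Nrp1 in controls -0.058 without the 3 dimmest arrays. Leaving out 1 array moved Flt1 in controls between -0.41 and 0.088, Nrp1 in controls between -0.058 and 0.27, Flt1 in RU UF against RU PeF between -0.58 and 0.033, and the dimmer Nrp1 probe set in RU UF against control PoF between -0.27 and 0.057. The share of called probe sets that were higher in control PoF than in control PeF was 53.2% as normalized, 74.6% with median scaling and 97.5% as deposited. For RU PeF against control PeF it was 45.8%, 75.4% and 63.6%, and for RU UF against control PoF 48.6%, 36.1% and 6.62%. The cause was not tested. Dim probe sets (Pgf, Flt4) limit what could be read.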
